A study of Homo sapiens with 12 samples.

Results

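The replication-dependent cluster histones are the genes of the HIST1, HIST2, HIST3 and HIST4 clusters, whose products package newly made DNA. Members were the protein-coding genes whose symbol starts with HIST1H, HIST2H, HIST3H or HIST4H, or in the newer form reads H1-1 to H1-6 or H2AC, H2BC, H3C or H4C and a number. Each gene was represented by its brightest probe set, and 14 pseudogenes were left out. The rule found 58 of 33457 genes, 52 core histones (12 H2A, 17 H2B, 10 H3 and 13 H4 genes) and 6 linker histones. Of these, 49 lie in HIST1 on chromosome 6, 6 in HIST2 and 2 in HIST3 on chromosome 1, and 1 in HIST4 on chromosome 12. A gene was tested where its log2 signal averaged 6.5 or more in the absence of doxycycline (Dox), the filter of the paper. It was passed by 55 members, 50 core and 5 linker histones, and H1-6, H2AC1 and H4C7 stayed below it. A member passes this filter if it is high in either cell line.

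The study asked what silencing of PRC1, a microtubule-bundling protein of cytokinesis, does in Ewing sarcoma cells. RDES and SK-N-MC, both established Ewing sarcoma cell lines, carried a Dox-inducible lentiviral hairpin against the coding sequence of PRC1 (shCDS), against its untranslated region (shUTR) or a non-targeting one (shCtrl), in populations selected with puromycin. Each of these 6 derivative lines was cultured for 60 h with 1 µg/ml Dox, Dox(+), or without it, Dox(-), and each of the 12 conditions was measured on 1 Clariom D array. No condition has a replicate, so tests use the derivative lines as replicates, and shCDS and shUTR are together called shPRC1. The number of arrays limits the precision.

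Some arrays did not lie with their label. STAG2, which encodes a cohesin subunit, was at 13.78 to 14.01 on the 4 RDES shPRC1 arrays and at 5.84 to 6.06 on the 4 SK-N-MC shPRC1 arrays, but at 6.01 and 6.10 on the 2 arrays labelled RDES shCtrl and at 9.32 and 9.15 on the 2 SK-N-MC shCtrl arrays. Of the 26 members called between the cell lines below, all 26 were nearer to SK-N-MC on the arrays labelled RDES shCtrl. Cell line levels were therefore taken from the shPRC1 arrays alone. Of 6 Ewing sarcoma markers fixed for the check, CD99, STEAP1, CCND1 and LIPI were at 12.72 or more on all 12 arrays, NKX2-2 was at 6.72 to 10.25 and NR0B1 was not measured under a single symbol. Markers of epithelial, haematopoietic and endothelial cells were at 7.38 or less. Of the fibroblast markers, DCN averaged 6.32 on the RDES shPRC1 arrays and 10.27 on the SK-N-MC shPRC1 arrays, LUM 6.88 and 9.10, and FAP 5.66 and 8.64, while PDGFRA averaged 6.19 and 5.48. Their part in the cell line results was not tested.

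A nucleosome wraps DNA around an octamer of H2A, H2B, H3 and H4, and linker histone H1 binds where the DNA enters and leaves it. Replication-dependent histone genes are short and mostly without introns, are transcribed in S phase when DNA is copied, and give mRNAs that end in a stem-loop in place of a poly(A) tail. The stem-loop is bound by SLBP, and the mRNAs are degraded when replication ends. Many gene copies encode the same or nearly the same protein, and which copies a cell uses can differ between cell types. Of the 58 members, 52 span under 1000 bases in the RefSeq annotation, and H2BC4, H2BC5, H2BC12, H2BC18, H2BC21 and H3C6 span more.

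The promoters carry class-specific elements, shown here because the results are given by class. RefSeq (GRCh38.p14) listed a promoter from 250 bases before to 50 after the start for 54 of 58 members, and the first start listed was used. On both strands, the octamer motif ATTTGCAT, which the transcription factor POU2F1 binds, was found in 14 of 17 H2B and 8 of 11 H2A promoters, in none of the 6 H1, 9 H3 and 11 H4 promoters, and in 1.8% of 27305 promoters of all genes. The H1 box AAACACA was found in all 6 H1 promoters, in 1 H2A and 1 H3 promoter, and in 5.76% of all promoters. TATAAA was found in 38 of 54 member promoters, against 12% of all, and CCAAT in all 6 H1, 11 H2A, 17 H2B and 9 H3 promoters but in 3 of 11 H4 promoters, against 35.7% of all. Divergent H2A and H2B genes can share 1 motif, as H2AC14 and H2BC14 did. So did H2AC20 and H2BC21, H2AC1 and H2BC1, H2AC6 and H2BC4, H2AC8 and H2BC8, and H2AC11 and H2BC11. Each of these sites was counted for both classes. In the following 30-base stretches before the annotated start the motif is in capitals, read 5′ to 3′ along the strand given. The first 3 H2B genes had a higher signal in RDES, the last a lower one, and the H1 genes include the members with the lowest Dox differences.
H2BC14 and H2AC14, chr6:27814963-27814992, plus strand: ttctactcctaATTTGCATaataacattta
H2BC10, chr6:26272875-26272904, plus strand: cagccagcctcATTTGCATatacacgaggt
H2BC12, chr6:27146886-27146915, minus strand: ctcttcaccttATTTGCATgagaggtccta
H2BC11, chr6:27132824-27132853, minus strand: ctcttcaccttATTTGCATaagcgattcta
H2BC17, chr6:27893265-27893294, minus strand: tcagaaagctcATTTGCATtaagaggaagc
H1-2, chr6:26056571-26056600, minus strand: tgaggtggaacAAACACAacttgggagcag
H1-3, chr6:26235088-26235117, minus strand: taaggggcaacAAACACAgcagcgcggtag
H1-4, chr6:26156201-26156230, plus strand: tgaggtgtaacAAACACAactcgggatccg
H1-5, chr6:27867687-27867716, minus strand: tgaggactaacAAACACAatttgggagtcc
In H1-2 and H1-3 the last base of the motif lay 113 bases before the start, and in H1-4 and in this stretch of H1-5 it lay 111 bases before it. In H2BC10, H2BC12, H2BC11 and H2BC14 the octamer ended 38, 39, 40 and 41 bases before the start. In H2BC17 it was on the opposite strand.

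PRC1 itself was measured first. Its log2 signal was 10.54 in Dox(+) and 14.50 in Dox(-) RDES shCDS cells, and 13.28 and 14.75 in RDES shUTR cells. In SK-N-MC it was 11.55 in Dox(+) and 15.56 in Dox(-) shCDS cells, and shUTR cells gave 12.66 and 15.59. The Dox(+) signal was thus 6.42%, 36.2%, 6.18% and 13.1% of the Dox(-) signal in these 4 lines, and 97.6% and 92.4% in the arrays labelled RDES shCtrl and in SK-N-MC shCtrl. Even PRC1 did not pass the test of the shPRC1 effect described below (-3.02 ± 0.56, limma adjusted p = 0.999), so that a p which misses the threshold here does not show an unchanged gene.

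Most cluster histones had a lower signal with Dox in RDES shCDS cells. There the Dox(+) minus Dox(-) difference was -1 log2 or less in 39 of 55 members, against 3.97% of all 15194 genes tested, and -2 or less in 12 of 55, against 0.276%. In RDES shUTR cells none of the 55 reached -1 (0.217% of all genes), in SK-N-MC shCDS cells only H2BC12 did (1.48%), and in SK-N-MC shUTR cells H2BC26 and H2BC1 did (2.96%). In both shCtrl pairs none did (0.079% of all genes for the arrays labelled RDES shCtrl and 0.408% for SK-N-MC shCtrl). A difference below 0 of any size was found in 53 of 55 members in RDES shCDS cells (55.7% of all genes), 16 in RDES shUTR cells (28.8%), 23 in SK-N-MC shCDS cells (41.5%), 47 in SK-N-MC shUTR cells (65.9%), 27 in the arrays labelled RDES shCtrl (63.5%) and 12 in SK-N-MC shCtrl (34.7%). RDES shCDS Dox(+) was the lowest of the 12 arrays for 34 of 55 members, and for 14.8% of all genes. With 1 array per condition a single pair of arrays has no test. In these bulk samples, fewer cells that hold a transcript and less of it per cell cannot be told apart.

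The linker histones had the lower median in RDES shCDS cells. There the median difference was -2.23 over 5 linker histones and -1.44 over 50 core histones, against -0.05 over all genes. In RDES shUTR cells the medians were 0.43 for linker, 0.12 for core and 0.17 for all genes. SK-N-MC shCDS cells gave 0.03, 0.06 and 0.07, and SK-N-MC shUTR cells gave -0.30, -0.27 and -0.15. In the arrays labelled RDES shCtrl they were 0.03, 0.01 and -0.07, and in SK-N-MC shCtrl 0.18, 0.19 and 0.11. By class, the medians in RDES shCDS cells were -1.74 for H3, -1.58 for H2B, -1.46 for H2A and -1.01 for H4, and the classes overlapped.

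**Figure D1:**
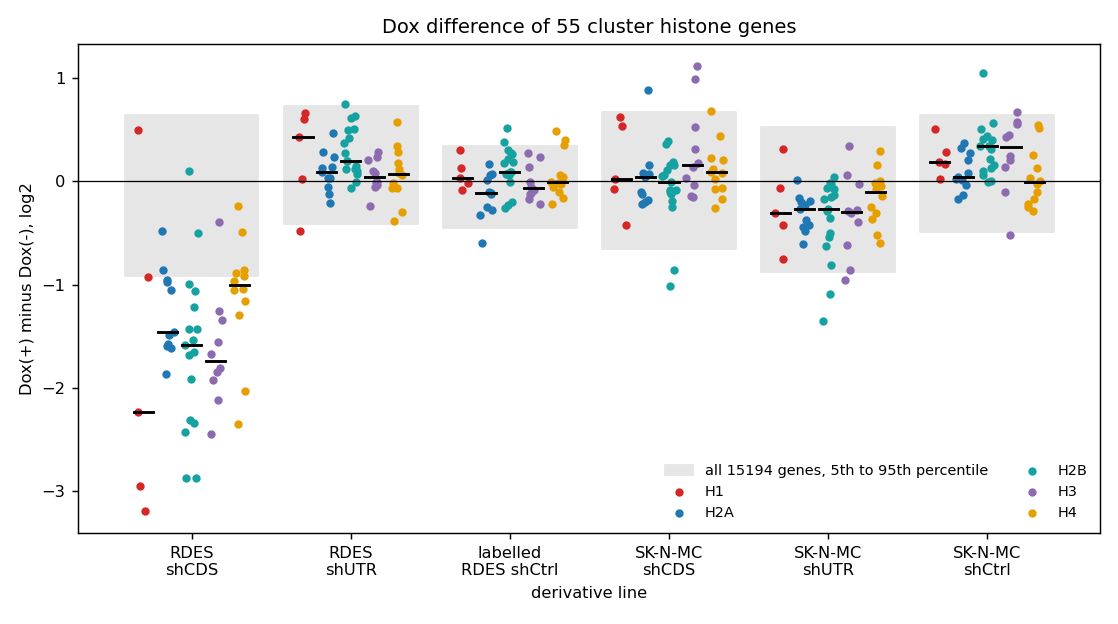
Dox(+) minus Dox(-) log2 difference (y axis) of the 55 cluster histone genes past the filter in each of the 6 derivative lines (x axis), 1 point per gene, coloured by class, with a black line at the class median and a grey band from the 5th to the 95th percentile of all 15194 genes. In RDES shCDS cells 39 of 55 points lie at -1 or lower, and in the other 5 lines 3 points in all do.

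The difference was also set against the signal of each member. Of the 12 members whose signal was under 9 in Dox(-) RDES shCDS cells, 5 had a difference of -1 or less, against 2.46% of all genes in that range. From 9 to under 12 it was 12 of 15 (5.23%), from 12 to under 15 it was 13 of 15 (5.23%), and at 15 or more it was 9 of 13 (3.16%). These shares describe 1 pair of arrays and were not tested.

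H1-2, a somatic linker histone, lies at chr6:26055740-26056470 and is read by probe set TC0600011127.hg.1. Its signal was 8.41 in Dox(+) and 11.37 in Dox(-) RDES shCDS cells, and 11.51 and 10.90 in RDES shUTR cells. In SK-N-MC it was 12.31 in Dox(+) and 12.38 in Dox(-) shCDS cells, and shUTR cells gave 12.16 and 12.47. The arrays labelled RDES shCtrl gave 12.18 and 12.06, and SK-N-MC shCtrl gave 12.44 and 11.94. The RDES shCDS Dox(+) array stood more than 2 log2 below all 11 others, at 12.9% of its Dox(-) signal. The shPRC1 coefficient, the mean of the 4 shPRC1 differences after subtraction of the shCtrl difference of the same label, was -0.995 ± 0.69 (SE, limma adjusted p = 0.999), and it was -0.19 without the RDES shCDS line and -1.71 without RDES shUTR. A dimmer second probe set of H1-2 was at 6.84 in Dox(+) and 7.88 in Dox(-) RDES shCDS cells and at 7.39 and 6.40 in RDES shUTR cells, and with the mean of both probe sets the coefficient was -0.66.

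The other linker histones split in RDES shCDS cells. H1-3 was at 10.24 in Dox(+) and 13.43 in Dox(-) RDES shCDS cells, and at 13.38 and 12.72 in RDES shUTR cells, a difference of -3.19, the lowest of all members, and one of 0.66. H1-5 was at 14.31 and 16.54 in RDES shCDS cells and at 16.49 and 16.06 in RDES shUTR cells, differences of -2.23 and 0.43. H1-4, a further somatic subtype, was at 15.64 and 16.57 in RDES shCDS cells, a difference of -0.93. H1-1 ran the other way, with 6.99 in Dox(+) and 6.49 in Dox(-) RDES shCDS cells, both close to the filter. H1-6, the testis-specific linker histone, was below the filter in its mean and ranged from 5.34 to 6.62 over the 12 arrays.

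H2BC26, an H2B gene of the HIST3 cluster at chr1:228458103-228458558 (probe set TC0100011871.hg.1), was lower with Dox in SK-N-MC as well. Its signal was 5.78 in Dox(+) and 8.12 in Dox(-) RDES shCDS cells, and 8.31 and 8.19 in RDES shUTR cells. In SK-N-MC it was 8.72 in Dox(+) and 9.57 in Dox(-) shCDS cells, and shUTR cells gave 8.05 and 9.41. The differences were thus -2.34, -0.86 and -1.36 in RDES shCDS, SK-N-MC shCDS and SK-N-MC shUTR cells, and 0.12 in RDES shUTR cells. The arrays labelled RDES shCtrl gave 8.47 in Dox(+) and 8.40 in Dox(-), and SK-N-MC shCtrl gave 8.999 and 7.95, so that the SK-N-MC control pair differed by 1.05 in the opposite direction. Its shPRC1 coefficient, -1.67 ± 0.54, was the lowest of the 55 members (limma adjusted p = 0.999), and without subtraction of shCtrl it was -1.11. H2AC25, the H2A gene that faces H2BC26, had 8.39 in Dox(+) and 9.24 in Dox(-) RDES shCDS cells, a difference of -0.86.

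H4C3, an H4 gene of HIST1 at chr6:26103933-26104337 (probe set TC0600007268.hg.1), was far above the filter on the RDES shPRC1 arrays and below it on the SK-N-MC shPRC1 arrays. Its signal was 15.84 in Dox(+) and 17.00 in Dox(-) RDES shCDS cells and 16.95 and 16.87 in RDES shUTR cells, differences of -1.16 and 0.08. In SK-N-MC it was 5.79 in Dox(+) and 5.85 in Dox(-) shCDS cells, and shUTR cells gave 4.47 and 5.07, all below 6.5, so that those differences are between readings near background. The arrays labelled RDES shCtrl gave 4.32 and 3.92, the lowest of all 12, and the SK-N-MC shCtrl arrays gave 12.99 and 13.16. Its shPRC1 coefficient was -0.55 ± 0.39 (SE, limma adjusted p = 0.999), a value that takes in these background readings. It was -0.23 without RDES shCDS, -0.16 without the arrays labelled RDES shCtrl, -0.94 without SK-N-MC shCtrl and -0.21 with the mean of both probe sets. A dimmer second probe set of H4C3 was at 7.21 to 8.46 on the RDES shPRC1 arrays and at 5.15 to 5.65 on the SK-N-MC shPRC1 arrays, but at 5.45 and 6.18 on the SK-N-MC shCtrl arrays.

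**Figure D2:**
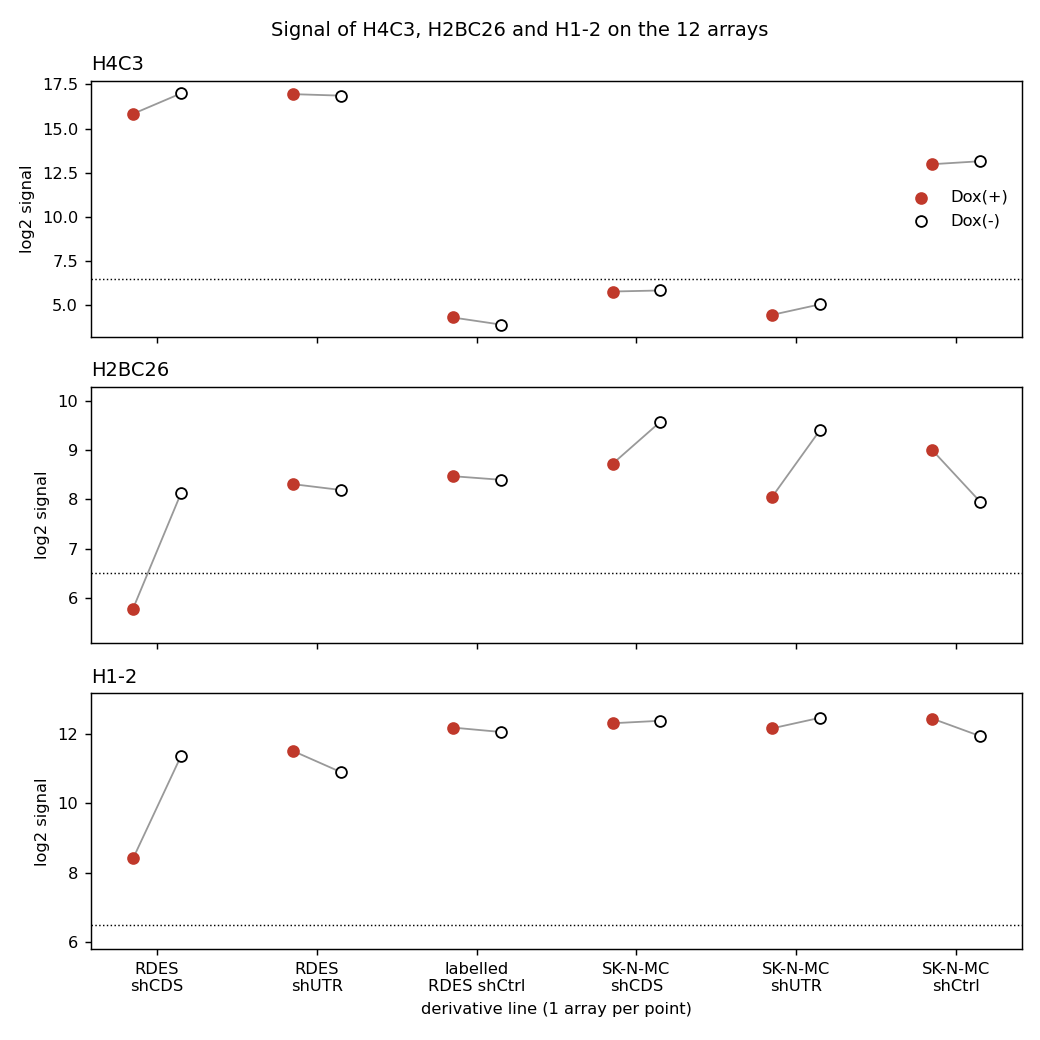
log2 signal (y axis) of H4C3, H2BC26 and H1-2 on the 12 arrays by derivative line (x axis), with Dox(+) as filled and Dox(-) as open points, 1 array per point and no error bars, and a dotted line at the filter of 6.5. H4C3 lies at 15.84 or more on the RDES shPRC1 arrays and below 6.5 on 6 arrays, and H1-2 and H2BC26 are lowest in RDES shCDS Dox(+) cells.

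In the H2A class all 11 members past the filter were lower with Dox in RDES shCDS cells, 7 of them by 1 log2 or more and none by 2. H2AC8 had the lowest shPRC1 coefficient of the class, -0.57 ± 0.48, with 14.55 in Dox(+) and 16.41 in Dox(-) RDES shCDS cells and 16.32 and 16.04 in RDES shUTR cells. H2AC20, the member of the class with the highest mean signal, had 15.01 and 15.98 in RDES shCDS cells. H2AC6 had the highest coefficient, close to 0 (adjusted p = 0.999 by limma), with 10.12 and 10.61 in RDES shCDS cells but 11.59 and 10.71 in SK-N-MC shCDS cells.

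In the H2B class 16 of 17 members were lower with Dox in RDES shCDS cells, 14 by 1 log2 or more and 5 by 2 or more. H2BC14 and H2BC10 had the lowest differences, both -2.87. H2BC14 was at 11.06 in Dox(+) and 13.94 in Dox(-) RDES shCDS cells and at 15.14 and 14.94 in RDES shUTR cells. H2BC10 was at 8.88 and 11.75 in RDES shCDS cells and at 11.74 and 11.81 in RDES shUTR cells. H2BC18, the H2B gene with the highest mean signal, was at 14.66 and 16.08 in RDES shCDS cells and between 16.07 and 16.26 on the other 6 shPRC1 arrays. H2BC5, whose coefficient of -0.25 ± 0.36 was the highest of the class, was at 11.09 and 12.08 in RDES shCDS cells. H2BC1, a testis-specific H2B variant, did not share the pattern, with 6.69 and 6.60.

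All 10 H3 genes were lower with Dox in RDES shCDS cells, 9 by 1 log2 or more. H3C15 had the lowest difference of the class, -2.45, with 11.77 in Dox(+) and 14.22 in Dox(-) RDES shCDS cells and 14.18 and 13.98 in RDES shUTR cells. It also had the highest mean signal of the class. H3C11 had the lowest shPRC1 coefficient of the class, -0.96 ± 0.46, with 13.18 and 15.30 in RDES shCDS cells and 15.12 and 15.36 in RDES shUTR cells. H3C3 had the highest, -0.17 ± 0.39, with 7.85 and 9.10 in RDES shCDS cells.

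All 12 H4 genes past the filter were lower with Dox in RDES shCDS cells, 6 by 1 log2 or more. H4C1 and H4C13 had differences of -2.35 and -2.03, and the other 10 lay between -1.29 and -0.24. H4C1, which had the lowest shPRC1 coefficient of the class, was at 9.73 in Dox(+) and 12.08 in Dox(-) RDES shCDS cells and at 12.10 and 12.11 in RDES shUTR cells. H4C5, with the highest mean signal, was at 15.73 and 16.59 in RDES shCDS cells, a difference of -0.86. H4C12, with the highest coefficient, close to 0, was at 11.21 and 12.10 in RDES shCDS cells.

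No member passed the test of the shPRC1 effect, and no gene did. All 55 coefficients were below 0, against 51.3% of all genes, with a median of -0.48 for core and -0.69 for linker histones and -0.01 for all genes (limma adjusted p = 0.999 for each member, 0 of 15194 genes called, 400 genes and 1 member, H2BC26, with an unadjusted p under 0.05). Without the RDES shCDS line 38 of 55 coefficients were below 0, against 47.7% of all genes, and the medians were -0.11 and -0.12. Only H2AC15, H2BC7, H3C6 and H4C4 were lower with Dox in all 4 shPRC1 lines, 4 of 55 members against 5.09% of all genes.

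The hairpins were compared directly. The Dox difference of shUTR minus that of shCDS passed the test in no member (0.105% of all genes called, 0.0724% higher and 0.0329% lower), with an unadjusted p under 0.05 in 18 of 55 members and in 629 of 15194 genes. The lowest p belonged to H1-3, with 1.77 ± 0.45 (SE, limma adjusted p = 0.0628), and to H1-2, with 1.66 ± 0.45 (adjusted p = 0.115). This fit has 1 residual degree of freedom per gene, and limma used the same spread for every gene. H1-3 passed when no filter was applied (adjusted p = 0.0444). The Dox difference of RDES minus that of SK-N-MC passed in no member (0.0132% of all genes called, 4 members and 685 genes with an unadjusted p under 0.05). Without the RDES shUTR line 13 of 55 members passed, all lower in RDES, against 0.559% of all genes, but RDES is then 1 line that is assumed to vary like the SK-N-MC lines, which alone give the spread, and the count describes RDES shCDS rather than RDES. Without the RDES shCDS line none passed, and the estimates were 0.80 for H1-2 and 1.23 for H2BC26.

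PRC1 stood at 6.42% of its Dox(-) signal in RDES shCDS cells, where 39 of 55 members were at -1 or less, and at 6.18% in SK-N-MC shCDS cells, where 1 was. MKI67, a marker of cycling cells, was at 13.31 in Dox(+) and 14.74 in Dox(-) RDES shCDS cells, at 15.16 and 15.37 in RDES shUTR cells, at 15.19 and 15.29 in SK-N-MC shCDS cells and at 15.08 and 15.34 in SK-N-MC shUTR cells. Its part in the histone differences was not tested.

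Single histone genes differed in level between the cell lines, in both directions, but the share called lower in RDES was not above that of all genes. RDES minus SK-N-MC was tested on the mean of Dox(+) and Dox(-) of each shPRC1 line, 2 lines against 2. By limma at an adjusted p under 0.05, 26 of 55 members differed, against 36.8% of all genes, 16 of them higher in RDES, against 16.1%, and 10 lower, against 20.8%. The median difference was -0.31 over core and -0.02 over linker histones, and -0.09 over all genes. Of the 16 higher members, H2AC15, H2BC10, H3C3, H4C6 and H4C13 passed the filter only through the RDES shPRC1 arrays, where they are high. Their calls are thus not independent of the filter. Without the shPRC1 arrays of either cell line, 49 members and 14555 genes pass the filter, a setting chosen after the data were seen. Among them 11 members were higher, against 15.1% of all genes, and 10 lower, against 20.9%. H4C3 and H1-3, among these 11, stayed in through SK-N-MC shCtrl Dox(-), at 13.16 and 8.06. On the other Dox(-) arrays outside RDES shPRC1 they were at 3.92 to 5.85 and at 6.03 to 6.26. In 15 members all 4 RDES arrays lay above all 4 SK-N-MC arrays, against 18.1% of all genes, and in 16 they lay below, against 23.6%. The 15 include H2AC15, H2BC10, H3C3, H4C6 and H4C13, which passed only through RDES. In size, 11 of 55 members were at least 2 log2 higher in RDES, against 2.65% of all genes, 4 of them (H2AC15, H2BC10, H3C3 and H4C13) among those that passed only through RDES, and only H2BC17 was at least 2 log2 lower, against 3.01%. Within 1 log2 of each other were 33 of 55 members, against 78.9% of all genes. Of the calls, 13 of 16 higher and 3 of 10 lower members also passed with each derivative line left out in turn. The count of calls fell without either SK-N-MC line and rose without either RDES line, and so did the share of all genes called. In each of these fits 1 cell line is a single line that is assumed to vary like the other 2, which alone give the spread. The filter was the same in them, so the calls of H2AC15, H2BC10, H3C3 and H4C13, which are among the 13, are not independent of it there either. With the Dox(-) arrays alone 29 of 55 members were called, 20 higher and 9 lower, against 34.8% of all genes. With all 6 lines as labelled, which counts the arrays labelled RDES shCtrl as RDES, no member and no gene passed.

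**Figure D3:**
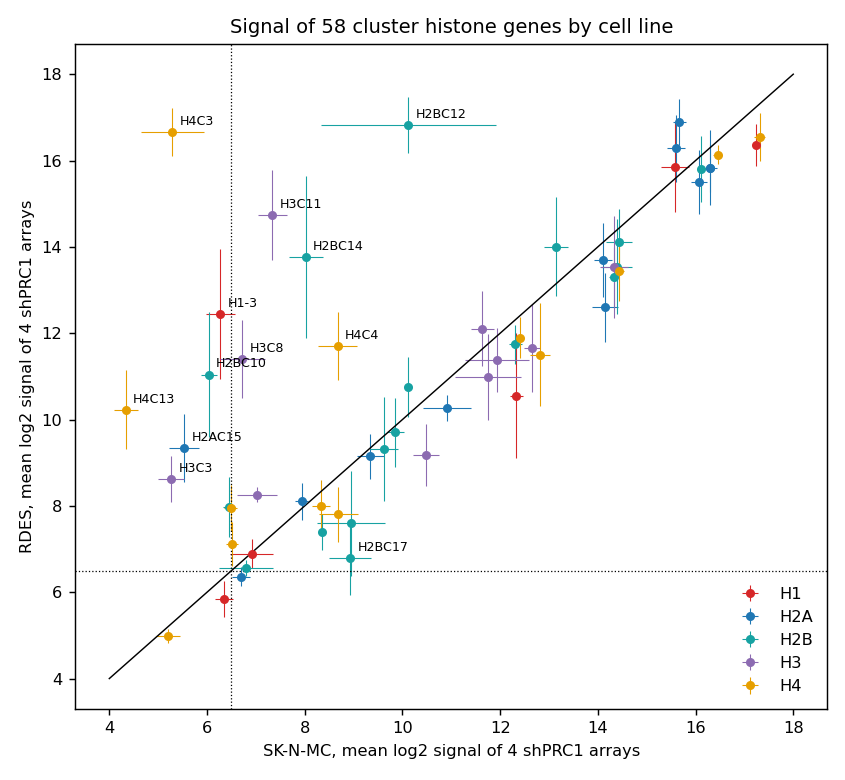
Mean log2 signal of the 58 cluster histone genes over the 4 RDES shPRC1 arrays (y axis) against the 4 SK-N-MC shPRC1 arrays (x axis), coloured by class, with SD over the 4 arrays as error bars, a diagonal of equal signal and dotted lines at 6.5. The 11 genes at least 2 log2 higher in RDES lie far above the diagonal, H4C3 at 16.66 against 5.29, and H2BC17 lies below it.

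Genes at background in 1 cell line were all at background in SK-N-MC. All 4 SK-N-MC shPRC1 arrays were below 6.5 and all 4 RDES shPRC1 arrays at or above it for H4C3, H2BC10, H2AC15, H3C3 and H4C13, 5 of 58 members against 1.08% of all genes, and the opposite held for none (0.825% of all genes). H4C3 averaged 16.66 ± 0.55 in RDES and 5.29 ± 0.65 in SK-N-MC (SD, n = 4 arrays each), a difference of 11.37 ± 0.35 (SE). Outside RDES shPRC1 it passed the filter only through SK-N-MC shCtrl Dox(-), so no p is given. With the mean of both H4C3 probe sets the difference was 6.87. That mean passed the filter only through the RDES shPRC1 arrays, so no p is given for it either. H4C13 was at 8.94 to 10.97 in RDES and at 4.05 to 4.56 in SK-N-MC, 5.89 ± 0.23 apart. Like H2BC10, H2AC15 and H3C3, it passed the filter only through the RDES shPRC1 arrays. Tests of these genes are not independent of the filter, so no p is given for them. H2BC10 was at 8.88 to 11.81 in RDES and at 5.86 to 6.21 in SK-N-MC. H2AC15 was at 8.17 to 9.82 in RDES and at 5.13 to 5.85 in SK-N-MC. H3C3 was at 7.85 to 9.10 in RDES and at 5.04 to 5.65 in SK-N-MC. For these genes the SK-N-MC value is a background reading, so the true difference can be larger than the measured one.

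The other genes at least 2 log2 higher in RDES were measured in part or in full in both lines. H3C11 was at 13.18 to 15.36 in RDES and at 6.94 to 7.63 in SK-N-MC, a difference of 7.40 ± 0.33 (limma adjusted p = 7.91e-06). H1-3 was at 10.24, 13.43, 13.38 and 12.72 in RDES and at 6.65, 6.03, 6.35 and 6.04 in SK-N-MC. The difference was 6.18 ± 0.36, and H1-3 was the only linker histone of this group. Outside RDES shPRC1 it passed the filter only through SK-N-MC shCtrl Dox(-), so no p is given. H2BC14 differed by 5.75 ± 0.68, H3C8 by 4.67 ± 0.31 and H4C4 by 3.02 ± 0.38, with limma adjusted p of 0.000683, 4.08e-05 and 0.000933. H2BC12 was at 15.89 to 17.29 in RDES, and in SK-N-MC its hairpin lines differed, with 11.12 in Dox(+) and 12.14 in Dox(-) shCDS cells and 8.61 and 8.63 in shUTR cells (6.71 ± 0.82, limma adjusted p = 0.000815). H2BC12L, a related gene outside the rule, ran alike, at 14.61 to 15.70 in RDES. It was at 9.77 and 10.57 in SK-N-MC shCDS cells and at 7.14 and 7.10 in SK-N-MC shUTR cells. Whether the probes of either gene also read the other was not tested. H2BC3, H4C6, H3C6, H2AC14 and H2BC6 were higher in RDES by 1.52, 1.46, 1.23, 1.22 and 0.64 log2. H4C6 lost its call without SK-N-MC shCDS, H2AC14 without SK-N-MC shUTR, and H2BC6 without either.

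The 10 members lower in RDES differed by -2.14 to -0.86. H2BC17 was at 5.57, 7.22, 7.50 and 6.89 in RDES and at 9.45, 9.09, 8.46 and 8.73 in SK-N-MC, a difference of -2.14 ± 0.32 (limma adjusted p = 0.00206). H1-2 differed by -1.78 ± 0.38 (limma adjusted p = 0.00945), with 8.41 to 11.51 in RDES and 12.16 to 12.47 in SK-N-MC, and by -1.29 with the Dox(-) arrays alone (limma adjusted p = 0.0045). H2AC4 differed by -1.55 ± 0.29. These 3 kept their call with every line left out in turn, but H1-2 and H2AC4 were close to the threshold without SK-N-MC shCDS. Their differences then ran from -2.44 to -1.12 for H1-2 and from -1.94 to -1.15 for H2AC4. Those of H2BC17 ran from -2.53 to -1.74. H4C1, H3C10, H2BC7, H4C8, H2BC4 and H1-4 differed by -1.31, -1.29, -1.04, -0.98, -0.96 and -0.86, and each lost its call without SK-N-MC shCDS and also, except H3C10, without SK-N-MC shUTR. H2BC26 differed by -1.34 ± 0.39 (limma adjusted p = 0.0319), and adjusted p was 0.162 without SK-N-MC shCDS and 0.0725 without SK-N-MC shUTR. Without RDES shCDS, whose Dox(+) array is low for most members, the differences were -1.12 for H1-2, -0.69 for H2BC26 and H2BC7, -0.71 for H4C1 and -0.59 for H4C8. Of the 10 members, H4C1 was not called with the Dox(-) arrays alone.

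Linker histones thus went in both directions between the cell lines. H1-3 was higher in RDES and H1-2 and H1-4 lower, while H1-5, at 14.31 to 16.54 in RDES and 15.25 to 15.92 in SK-N-MC, differed by 0.27 ± 0.29 (limma adjusted p = 0.516), and H1-1 differed by -0.02 ± 0.22 (limma adjusted p = 0.951). The signals of different genes come from different probes and were set against each other only to pick the brightest member of a class.

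Genes high in RDES were spread through HIST1 among genes that differed little or ran the other way. All 11 lie in HIST1, which runs from H2AC1 to H2BC17, chr6:25726063-27893891, with 32 members before and 17 after its widest gap of 846782 bases. H4C3 lies next to H1-2, which was lower in RDES, and the next gene past the filter on its other side, H2BC4, was lower too. H3C8 and H2BC10 are neighbours, 4.67 and 5.003 higher in RDES, and so are H3C11 and H4C13, 7.40 and 5.89 higher. H2BC17, the next of the members after H4C13, was lower. No HIST2, HIST3 or HIST4 member was called higher in RDES, and the 1 HIST4 member, H4C16, differed by 0.61 (limma adjusted p = 0.0761).

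**Figure D4:**
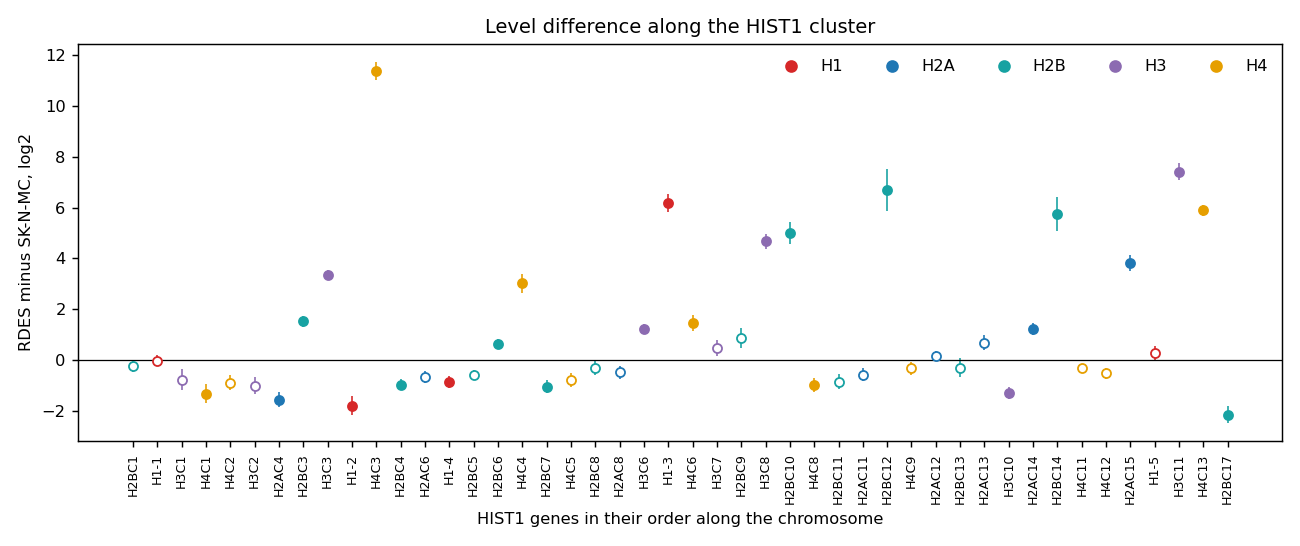
RDES minus SK-N-MC log2 difference (y axis) with its SE for the 46 HIST1 members past the filter, in their order along chromosome 6 (x axis, not to scale), coloured by class, filled where the limma adjusted p was under 0.05. Genes 3.02 to 11.37 log2 higher in RDES stand beside genes near or below 0.

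Divergent pairs, an H2A and an H2B gene on opposite strands with starts at most 500 bases apart, allowed partners of 1 intergenic stretch to be compared. Among the 54 members with a promoter entry there were 8 such pairs, with starts 215 to 248 bases apart. H2AC12 has neither a promoter nor a strand in the tables used, and lies 248 bases from the start of H2BC12, so that they may be a further pair. H2BC12 was 6.71 higher in RDES, and H2AC12 differed by 0.17 ± 0.20 (limma adjusted p = 0.56). H2BC14 and H2AC14, whose starts are 245 bases apart and whose shared octamer is printed above, were both higher in RDES, but by 5.75 and 1.22 log2. H2BC14 was at 11.06 to 15.14 in RDES and 7.55 to 8.35 in SK-N-MC, and H2AC14 at 16.10 to 17.22 and 15.50 to 15.84. With Dox in RDES shCDS cells the H2B gene had the lower difference in 6 of the 7 pairs with both genes past the filter, for example -2.87 for H2BC14 and -1.05 for H2AC14, and -2.34 for H2BC26 and -0.86 for H2AC25. H2BC8 and H2AC8 ran the other way, with -1.54 and -1.87. This is a description of 1 pair of arrays.

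The SK-N-MC shCtrl arrays held intermediate signals of most genes high in RDES. H4C4, at 9.01 in Dox(+) and 9.03 in Dox(-), stayed within its range on the SK-N-MC shPRC1 arrays, 8.17 to 9.08. H2BC14, at 8.58 and 8.02, overlapped its range there, 7.55 to 8.35. For the 11 genes, the mean of the SK-N-MC shCtrl arrays was 0.28 to 7.78 log2 above the mean of the SK-N-MC shPRC1 arrays, median 1.93, and that of the arrays labelled RDES shCtrl was -1.42 to 0.37 from it, median -0.27. In linear signal the SK-N-MC shCtrl mean was 2.26% to 17.9% of the RDES shPRC1 mean, median 11.8%, and the SK-N-MC shPRC1 mean was 0.0377% to 12.3% of it, median 1.86%. For H3C11 the SK-N-MC shCtrl arrays gave 11.41 in Dox(+) and 10.84 in Dox(-), for H4C13 7.43 and 7.42, and for H2BC12 14.01 and 13.67. The source of these signals was not tested, and the shCtrl pair of either label is the baseline that the shPRC1 coefficient subtracts.

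Genes that act with the histones were set beside them. Of 32 measured DNA replication genes, 30 had a shPRC1 coefficient below 0, against 51.3% of all genes, and none passed the test. Their median difference was -1.04 in RDES shCDS, 0.12 in RDES shUTR, 0.10 in SK-N-MC shCDS and -0.30 in SK-N-MC shUTR cells, against -0.05, 0.17, 0.07 and -0.15 over all genes. LIG1, which joins Okazaki fragments, had -2.07 there, RFC2 of the clamp loader -1.69 and CDT1, a licensing factor, -0.98, while RPA2, which binds single-stranded DNA, had -0.20. Of 29 measured genes for histone supply and mRNA processing, 22 had a coefficient below 0 and none passed, with median differences of -0.56, 0.11, 0.05 and -0.17 in the same 4 lines. CDK2, the S phase kinase, had -1.53, RBBP7, a histone-binding chaperone subunit, -1.48, and NASP, a histone chaperone, -0.85, while LSM10 of the U7 particle had 0.09. SLBP, which binds the histone stem-loop, had -0.73 in RDES shCDS and -0.06 in RDES shUTR cells. Of 9 replacement histones past the filter, 8 had a coefficient below 0 and none passed, with median differences of -0.79, 0.33, -0.09 and -0.36. CENPA, H2AX, H1-10 and H3-3B had -1.69, -1.44, -0.82 and -0.73 in RDES shCDS cells. Between the cell lines 6 genes for histone supply were higher in RDES and 7 lower, 2 replication genes higher and 6 lower, and 1 replacement histone higher and 5 lower, where 16.1% of all genes were higher and 20.8% lower.

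Near-identical copies limit which gene a signal belongs to. In all, 8 probe sets that carry symbols of more than 1 histone gene were left out, among them 1 for H3C15 and H3C14, which was at 11.78 in Dox(+) and 14.20 in Dox(-) RDES shCDS cells, where H3C15 was at 11.77 and 14.22. How the array's probes split between such copies was not tested.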

How the data were processed

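The authors deposited log2 signals per probe set, which the paper describes as SST-RMA values (background correction, quantile normalization and summary over probes) from Transcriptome Analysis Console. RMA and hg38 are the method and build in the notes of the submitters. Quantile normalization gives each array the same distribution, so a change shared by most genes would not show, and the array medians lay between 5.29 and 5.40. Of 135750 probe sets, 36176 carried a single gene symbol in the platform table, 1119 several and 98455 none, and 624 symbols were updated through RefSeq. Members and lists were chosen with earlier results of these data known.

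Linear models with moderated variances (lmFit, eBayes) were fitted in limma 3.58.1 under R 4.3.3, with Benjamini-Hochberg adjustment over the 15194 genes past the filter, two-sided, at 0.05. They were the shPRC1 effect of Dox over 6 differences with a cell line term, RDES minus SK-N-MC in level and in Dox difference, and shUTR minus shCDS, over the 4 shPRC1 lines. Other filters, a signal-dependent variance, the mean of probe sets, centring, lines left out and other baselines were the alternatives. Named were PRC1, H4C3, H2BC26, H1-2, all linker histones, the extremes of each core class, members that passed a test or were at background in 1 line, and the extremes of the other lists. STAG2, MKI67, SLBP, H2BC12L, H2AC25, H2BC1, H2BC8, H2AC12 and H4C16 fall outside this rule, and their values were known when they were picked. p-values measure the spread between derivative lines, whose arrays were labelled as 1 biological replicate each.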

Additional observations from a re-analysis of the deposited data

Results flagged for a closer look

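In 10 of 55 members 1 of the 4 shPRC1 lines stood apart from the other 3 in its Dox(+) minus Dox(-) difference, by a gap that takes more of the whole range than Dixon's critical value allows, and the line was RDES shCDS each time. This gap made up 0.966 of the range for H3C2, 0.918 for H4C8, 0.91 for H1-3, 0.903 for H2BC18, 0.9 for H1-4, 0.882 for H2BC6, 0.869 for H2BC7, 0.839 for H4C1, 0.833 for H2BC5 and 0.831 for H2BC10. Chance alone would mark about 1 in 20 genes, and 5.19% of all genes tested were marked, against 18.2% of the members. All 10 marks come from the RDES shCDS pair of arrays, so the members are not separate observations. The 4 lines also differ in cell line and hairpin, so these shares describe the arrays and do not test chance.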

How the results depend on the processing

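No member passed the test of the shPRC1 effect under any alternative run. The medians of its coefficient ran from -0.78 to -0.11 for core and from -1.26 to -0.12 for linker histones as each line was left out, and the coefficient of H1-2 was 0.0775 when shCtrl was not subtracted and RDES shCDS was left out, a setting chosen after the data were seen. Centring each array on the median of the genes tested left 51 of 55 coefficients below 0. For RDES minus SK-N-MC in level the count of members called was 26, and 17 to 44 with 1 line left out, and 0 with all 6 lines as labelled. For their difference in Dox effect it was 0, and 0 to 13 with 1 line left out, and the estimates ranged from -0.83 to 0.41 for H4C3, from -1.24 to 1.23 for H2BC26 and from -2.76 to 0.80 for H1-2. For shUTR minus shCDS 1 member passed without a filter, where more genes were tested, and lines could not be left out because no residual degree of freedom remained. Arrays of 1 derivative line are the pairs of the main test, and without this replicate block 0 members passed as well. The cause of these shifts was not tested. With 1 array per condition, differences of a single pair carry no error, and signals under 6.5 are near background.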
